A study of Mus musculus with 9 samples.

Results

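CTCF binding around Tcf7 and Lef1, the genes deleted in the double-deficient cells of the study, was described from peaks that overlapped chr11:51950000-52200000 (the Tcf7 window, 250 kb) and chr3:130500000-131050000 (the Lef1 window, 550 kb) of the mouse build mm9. Peaks of the 8 CTCF libraries were joined into 1 region wherever they shared at least 1 bp. The Tcf7 window held 35 regions and the Lef1 window 45, together 80 of the 39574 regions of the series. The nearest regions outside lay 26453 bp before and 8901 bp after the Tcf7 window, and 35750 bp before and 469 bp after the Lef1 window, so the second edge of the Lef1 window fell close to a further region.

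The libraries were made by CUT&RUN, in which a nuclease held at an antibody frees the DNA around the bound protein. All mice carried hCD2-Cre and the reporter Rosa26-lsl-GFP. The WT group had wild-type Tcf1 and Lef1 genes. The DKO group came from double floxed mice and is labelled Tcf1-/-Lef1-/-. Spleen cells of both were sorted as GFP+ TCRbeta+ CD62Lhi CD44lo-med CD8+, and were taken directly (0 h) or after 72 h of culture with IL-7 and IL-15. There were 2 CTCF libraries for each of the 4 combinations of genotype and time, and a control library with IgG was made from fresh WT cells. No source used here gave age or sex, or said whether replicates came from separate animals, so the p-values measure only the spread between these samples.

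CTCF is a DNA-binding protein with zinc fingers that marks insulators and anchors the loops of chromatin. Tcf7 encodes Tcf1, which with Lef1 forms a pair of related HMG-box proteins that bind similar DNA sites, act with beta-catenin in Wnt signalling, and are needed for T cell development and for naive and memory CD8+ T cells. IL-7 and IL-15 are cytokines that keep such cells alive and dividing at a low rate.

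By gene order in GRCm38, the protein-coding neighbours of Tcf7 are Skp1 and Vdac1, and those of Lef1 are Rpl34 and Hadh. Gene starts and exons of mm9 were not used here, so no region was placed within a gene. No source used here named the exons removed by Cre. A peak list holds no reads of an exon, so the deletion itself was not checked.

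The CTCF lists held 30309 to 32585 peaks at 0 h. At 72 h they held 17335 and 26630 peaks in WT, and 10339 and 16234 in DKO, for replicates 1 and 2. The fold of a peak is the authors' enrichment over local background, and its median over a whole list was 9.78 to 10.4 at 0 h and 7.03 to 9.06 at 72 h. No listed CTCF peak had a fold under 4, so an absent peak means that no peak was listed, not that CTCF was absent. No source used here gave the read depth. The IgG list of 5 peaks had 0 in either window.

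Both windows were dense in CTCF regions. The Tcf7 window held 14.0 regions per 100 kb, against 2.77 per 100 kb over all of chromosome 11. The Lef1 window held 8.18, against 1.19 over chromosome 3. Regions found in all 8 libraries were also denser there, at 2.4 per 100 kb in the Tcf7 window against 0.683 on its chromosome, and at 1.09 in the Lef1 window against 0.2998. These densities are descriptions, because the windows were set around 2 chosen genes.

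Many regions of the windows were seen in part of the libraries. In the Tcf7 window 6 of 35 regions (17.1%) were seen in every one of the 8 libraries and 5 (14.3%) in 1 alone. In the Lef1 window these were 6 of 45 (13.3%) and 10 (22.2%). Over all 39574 regions the shares were 24.2% and 14.7%. Each region seen in a single library was seen at 0 h. The median width was 913 bp in the Tcf7 window, 686 bp in the Lef1 window and 747 bp over all regions. Summits of most regions lay close together, with a median range between libraries of 110 bp in the Tcf7 window and 102 bp in the Lef1 window. The range reached 1111 bp at chr3:130858990-130860945, so peaks joined there may mark more than 1 site.

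The fresh WT libraries had 26 and 23 peaks in the Tcf7 window, and the fresh DKO libraries had 29 and 29. After 72 h the WT libraries had 10 and 16, and the DKO libraries 6 and 9. All 4 libraries at 0 h were thus above all 4 at 72 h, while in these counts the genotypes stood in opposite order at the 2 times. The mean was 26.75 peaks at 0 h and 10.25 at 72 h, a difference of -16.5 (exact two-sided permutation test within genotype, p = 0.0556, adjusted over 8 tests 0.111). That p is the smallest the 36 assignments can give, so the design could not pass 0.05. Between genotypes the difference in mean was -0.5 peaks (exact permutation test within time, p = 0.833), smaller than the SD of 2.12 between the WT libraries at 0 h (n = 2).

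Lef1 window counts at 0 h were 34 and 36 for WT, and 33 and 34 for DKO. At 72 h they were 11 and 17 for WT, and 6 and 11 for DKO. Again no library at 72 h reached any at 0 h, and at 0 h the genotypes overlapped. The means were 34.25 and 11.25, a difference of -23.0 (exact two-sided permutation test, p = 0.0556, adjusted 0.111, the smallest these assignments allow). DKO minus WT, averaged over the times, was -3.5 peaks (exact permutation test, p = 0.222, adjusted 0.356).

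List lengths differed between the times, so the counts were also read against list length. The Tcf7 window took 0.0798% and 0.0743% of the WT lists at 0 h, 0.0957% and 0.0924% of the DKO lists at 0 h, 0.0577% and 0.0601% of the WT lists at 72 h, and 0.0580% and 0.0554% of the DKO lists at 72 h. The Lef1 window took 0.104%, 0.116%, 0.109% and 0.108% at 0 h, and 0.0635%, 0.0638%, 0.0580% and 0.0678% at 72 h, in the same order. In both windows the 72 h shares lay below all 0 h shares, with differences of -0.0277 percentage points for Tcf7 and -0.0462 for Lef1 (exact permutation tests, p = 0.0556 for each, adjusted 0.111). DKO minus WT, averaged over the times, was 0.00743 percentage points for Tcf7 (exact permutation test, p = 0.278) and -0.00123 for Lef1 (exact permutation test, p = 0.722). When each list was cut to its 10339 peaks of highest rank, the length of the shortest list, the difference between 72 h and 0 h became -0.75 peaks in the Tcf7 window (exact permutation test, p = 0.667) and to -2.75 in the Lef1 window (exact permutation test, p = 0.0556).

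**Figure D1:**
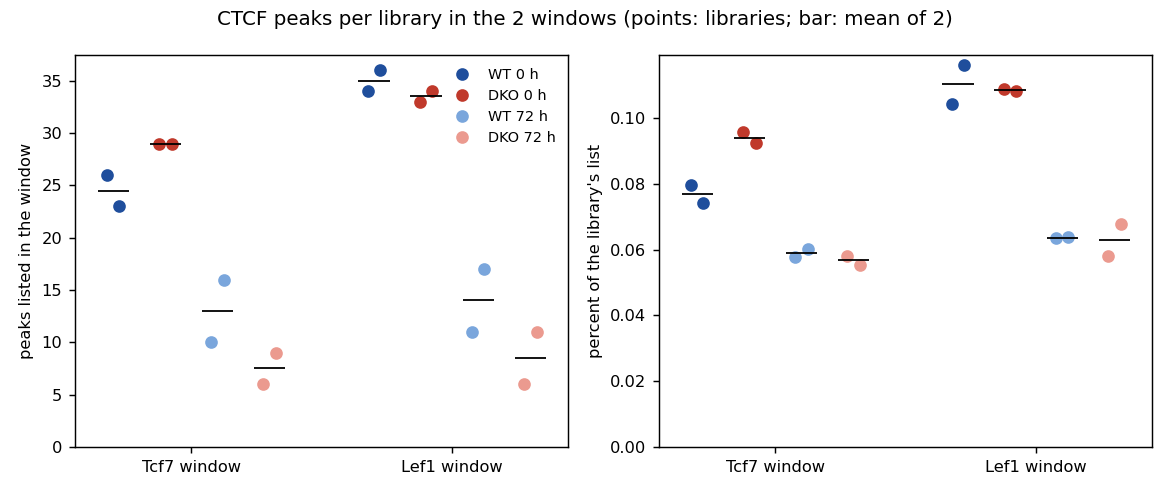
Peaks listed in each window (left, count) and as a percent of the library's own list (right), with 1 point per library and a bar at the mean of the 2 libraries of a group. The 4 libraries at 72 h, 6 to 16 peaks for Tcf7 and 6 to 17 for Lef1, sit below all 4 at 0 h on both scales.

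The Tcf7 sites given first were picked from regions found in all 8 libraries, so their presence in every group was fixed by that choice. Folds below are given for replicates 1 and 2 in the order WT 0 h, DKO 0 h, WT 72 h and DKO 72 h. Among the 6 regions found in all 8 libraries, that of highest rank, chr11:52158188-52160515, had folds of 51.8 and 43.3, then 45.4 and 44.2, then 19.1 and 30.4, then 9.65 and 13.8. At 0 h the DKO values lay between the WT values, and at 72 h both DKO values lay below both WT values. Rank here is the percentile of a peak's −log10 p within its own list, averaged over the libraries with a peak. By this rank chr11:52127071-52128751, found in 7 libraries and described below, stood higher, at 97.7 against 94.3.

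A second strong site, chr11:52187479-52188801, had 23.4 and 22.4, 16.9 and 25.1, 8.23 and 15.3, and 6.43 and 9.98. Toward the edge of the window, chr11:52197900-52198830 had 20.9 and 19.3, 20.4 and 22.7, 9.64 and 15.0, and 8.29 and 9.48. In both, the genotypes overlapped at 0 h, and every 0 h value exceeded every 72 h value. The latter also had both DKO values below both WT values at 72 h.

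Next to the strongest region, chr11:52155637-52157995 had 15.0 and 8.25, 14.3 and 17.4, 6.56 and 8.67, and 6.14 and 5.87. Farther away, chr11:52110658-52111813 had 17.5 and 9.68, 18.5 and 19.6, 5.30 and 11.5, and 4.98 and 10.8. In these 2 regions replicate 2 of WT at 0 h had the lowest value of the 0 h libraries, below replicate 2 of WT at 72 h, so the times overlapped. The sixth region found in all 8 libraries, chr11:52067071-52067983, had 14.0 and 13.5, 11.4 and 19.8, 9.04 and 15.0, and 6.65 and 10.03, with overlap between times as well.

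**Figure D2:**
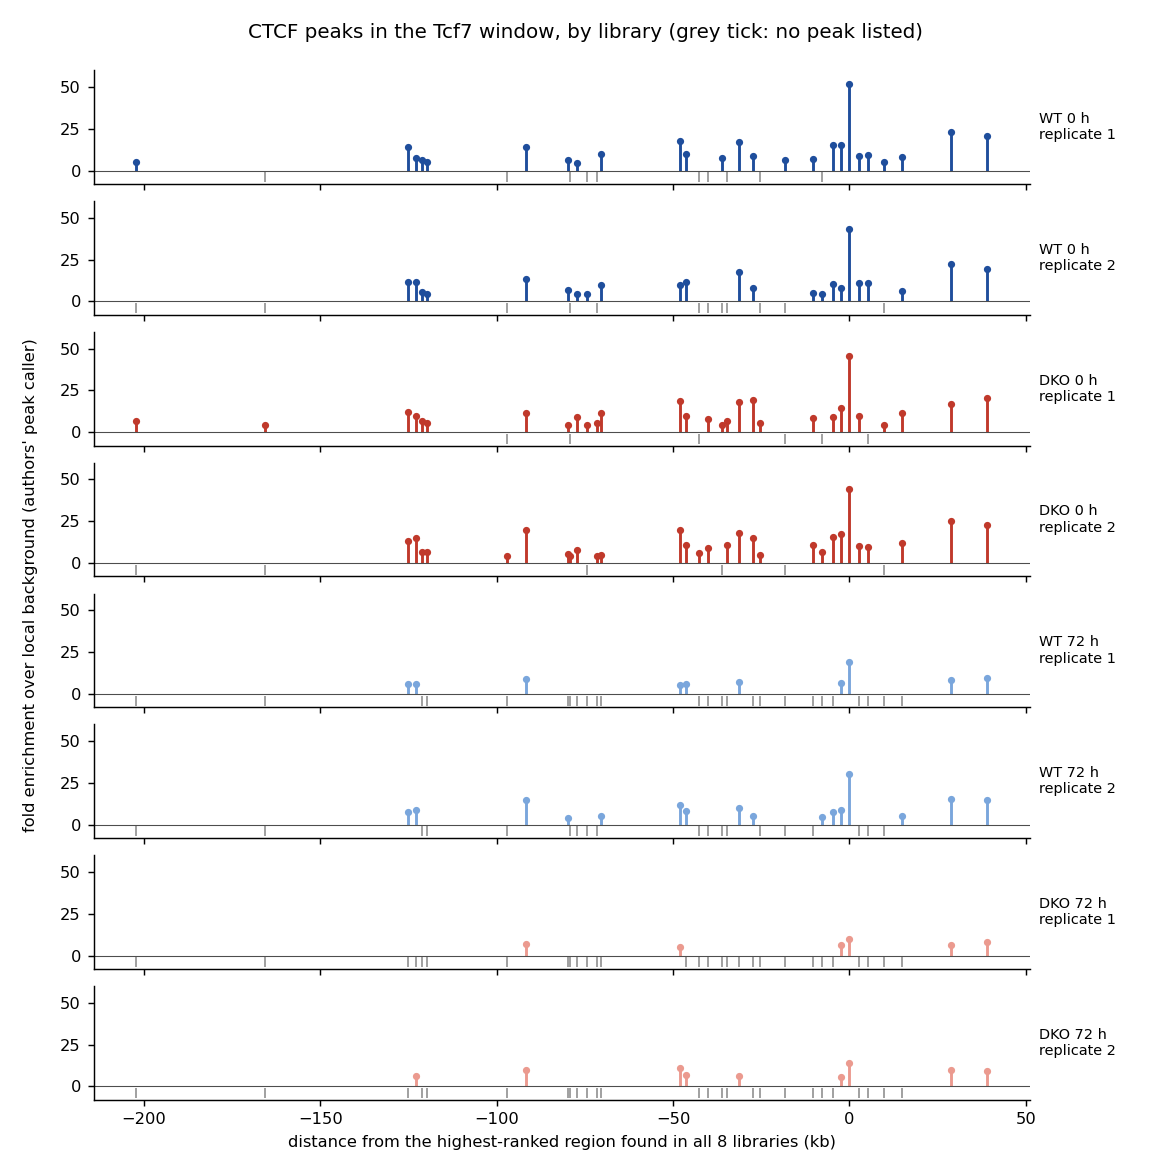
Fold of each listed peak (vertical, linear axis, 1 panel per library) by distance in kb from the highest-ranked region found in all 8 libraries of the Tcf7 window, where a grey tick marks a region without a peak in that library. The tallest stem, 43.3 to 51.8 at 0 h, is at 0 kb in every panel, and DKO 72 h replicate 1 keeps 6 stems.

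Around Lef1 the highest-ranked site was chr3:131022337-131023563, with folds in the same order of 38.0 and 42.3, 53.9 and 48.9, 22.0 and 33.5, and 11.4 and 17.7. DKO lay above WT at 0 h and below WT at 72 h, with no overlap at either time. The next, chr3:130948525-130949542, had 33.1 and 28.1, 34.2 and 30.2, 15.4 and 25.7, and 8.86 and 15.0. Its genotypes overlapped at 0 h and were apart at 72 h.

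The next 3 sites by rank among those found in all 8 libraries were weaker. At chr3:131002549-131003411 the folds were 21.4 and 14.1, 25.04 and 28.3, 6.37 and 12.9, and 5.71 and 10.2. At chr3:130590464-130591437 they were 20.1 and 16.7, 25.1 and 22.3, 8.07 and 13.8, and 6.54 and 8.73. Both sites had DKO above WT at 0 h without overlap, and overlapping genotypes at 72 h. At chr3:130940335-130941281 they were 12.7 and 11.7, 16.2 and 14.5, 7.06 and 10.6, and 5.56 and 5.60, in the same order as at the highest-ranked site. The weakest region found in all 8 libraries, chr3:130722109-130723040, had 8.83 and 10.4, 13.8 and 15.5, 4.89 and 6.13, and 4.11 and 6.31.

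**Figure D3:**
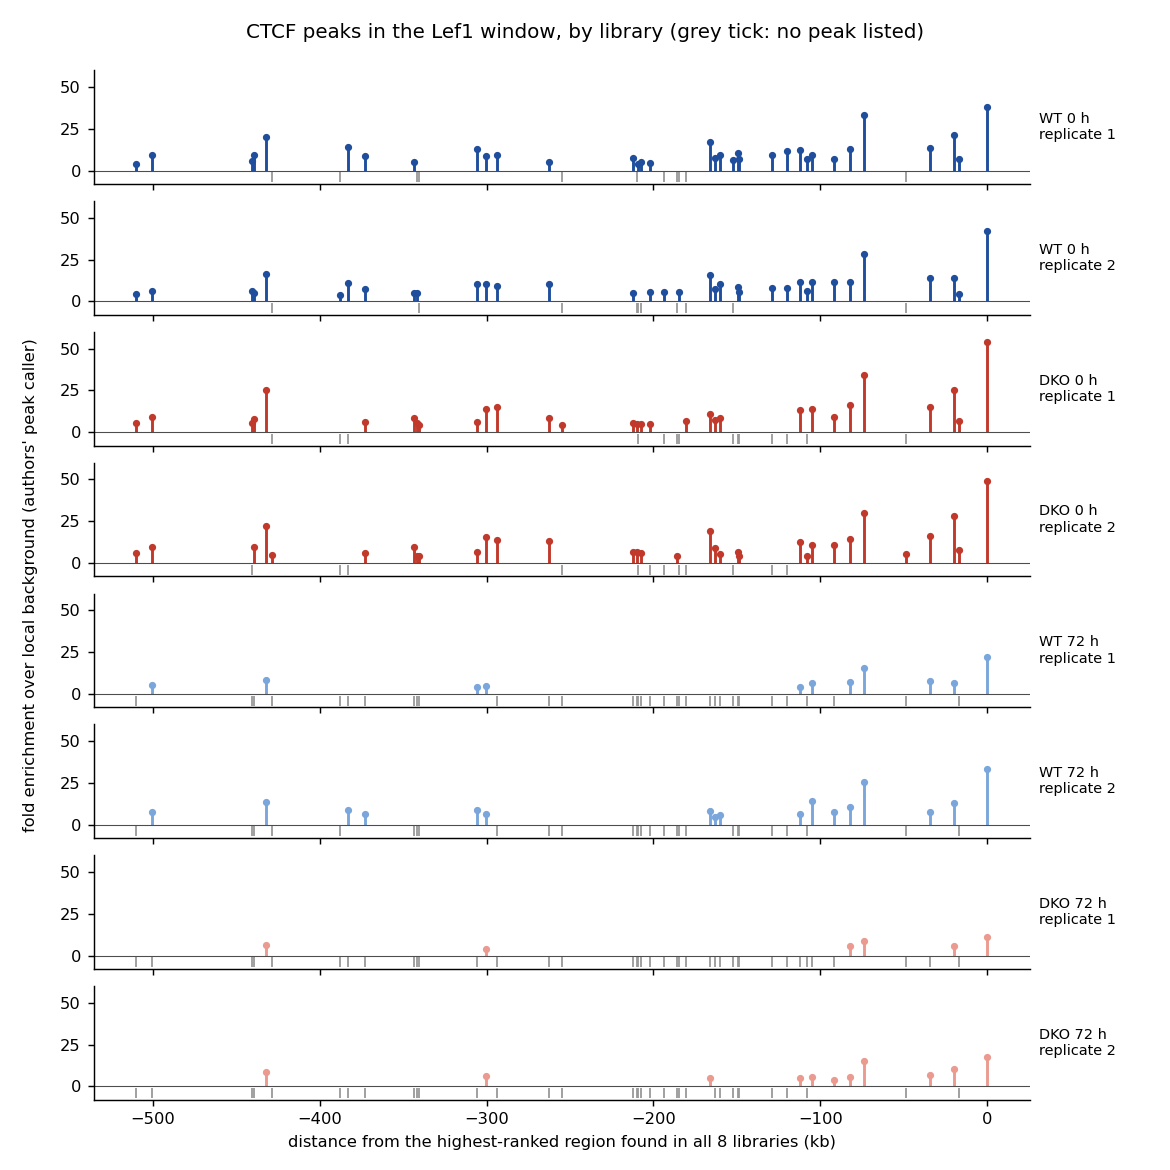
Fold of each listed peak (vertical, linear axis, 1 panel per library) by distance in kb from the highest-ranked region found in all 8 libraries of the Lef1 window, with grey ticks for regions without a peak. Sites thin out at 72 h along the whole window, to 11 and 17 in WT and 6 and 11 in DKO.

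The question put to the 0 h libraries was whether CTCF sites differed between WT and DKO cells around the deleted genes. A region was called for a genotype when a peak was listed in both of its libraries and in none of the other genotype's. In the Tcf7 window 4 of 24 regions found in both DKO libraries (16.7%) were called for DKO, against 3.97% over the genome. None of 21 regions found in both WT libraries was called for WT, against 6.81%. In the Lef1 window 2 of 27 (7.41%) were called for DKO and 3 of 31 (9.68%) for WT, against the same 3.97% and 6.81%. With 2 libraries against 2 the smallest exact p for a region is 0.333, so no region was tested, and these shares are descriptions.

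The 4 Tcf7 regions called for DKO at 0 h lay within 47.0 kb. Their peaks were of low to middling fold. The region chr11:52118757-52119504 had 7.81 and 9.10 in the DKO libraries, and chr11:52124183-52124838 had 6.52 and 10.9. The other 2 were weaker, with 5.58 and 4.52 at chr11:52087331-52088014, and 5.55 and 4.86 at chr11:52133633-52134298. No WT library and no 72 h library had a peak at any of the 4.

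The stretch that these 4 span, chr11:52087331-52134298, held 11 regions. Within it 5 regions were found in each 0 h library. In 3 of the 5 both DKO folds exceeded both WT folds, and in 0 the reverse held, against 28.2% and 15% over the genome. The stretch was set by the calls for DKO and holds few regions, so this count is a description. At chr11:52127071-52128751, chosen after its values were seen, the gap was narrow, with 17.3 and 17.5 in WT and 18.3 and 17.8 in DKO. The largest such gap was at chr11:52131477-52132694, where WT had 9.02 and 8.32 and DKO had 19.1 and 14.8. After culture this region had a single peak, of 5.26 in WT replicate 2. Just before the stretch, chr11:52081756-52082438 had 0 h folds of 4.47 and 4.20 in WT and 9.36 and 7.97 in DKO, and no peak at 72 h.

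The deposited lists skip some of the peak caller's running numbers, and a skipped number is taken here as a called peak that is not listed. In each list 5.13% to 7.38% of the numbers were missing. This check was chosen after the data were seen. For the region at 52118757 a number was missing from the gap that spans it in both WT lists at 0 h, and for the region at 52124183 in WT replicate 2. In WT replicate 2 this was the same number, in a 13.4 kb gap that spans both regions, so it could belong to at most 1 of them. For the regions at 52087331 and 52133633 no number was missing in either WT list. The part of unlisted peaks in the first 2 calls was not tested. Without DKO 0 h replicate 1 the number of Tcf7 regions called for DKO was 7 in place of 4, and at equal list length it was 1. With a library left out the call rests on 1 library of its group. Under that looser rule a count can only stay or rise.

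In the Lef1 window 3 regions were called for WT at 0 h. The strongest, chr3:130639833-130640485, had 13.8 and 11.1 in the WT libraries, and 8.75 in WT replicate 2 at 72 h. The other 2 lay close together, at chr3:130893564-130894069 with 9.09 and 8.15, and at chr3:130902251-130903505 with 11.9 and 7.84. Neither had a peak at 72 h. These 3 were of higher fold than the 2 Lef1 regions called for DKO, which had 4.41 and 4.01 at chr3:130682135-130682750, and 5.20 and 6.87 at chr3:130812638-130813603.

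Near the pair, 3 more regions were weak or absent in DKO cells at 0 h. They were chosen after their values were seen. The region chr3:130873043-130873721 had 10.8 and 8.58 in WT and 6.57 in DKO replicate 2. The region chr3:130874102-130874524 had 6.71 and 5.60 in WT and 4.01 in DKO replicate 2, and chr3:130914829-130915637 had 6.96 and 6.24 against 4.01. DKO replicate 1 had no peak at any of these 5 regions.

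Among them, the wide region chr3:130909953-130912209 did not share that pattern, with 0 h folds of 12.3 and 11.8 in WT and 13.3 and 12.6 in DKO. DKO replicate 1 had no listed peak over 46.9 kb that span 4 of the 5 regions, and 1 peak number was missing there, as was 1 around the fifth region, chr3:130914829-130915637. DKO replicate 2 missed no number at the pair called for WT. At chr3:130639833-130640485 a number was missing in both DKO lists, in gaps of 58.7 and 55.5 kb, and at chr3:130812638-130813603 in both WT lists. At chr3:130682135-130682750 a number was missing in WT replicate 2 alone. Whether any of these regions lies in the DNA removed by Cre cannot be told from the sources used here.

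The Lef1 calls at 0 h rose when single libraries were left out, the only direction in which the looser rule can move a count. The count for WT was 6 without WT replicate 1 or without DKO replicate 2, and 5 without WT replicate 2 or without DKO replicate 1. The count for DKO was 5 without DKO replicate 1 and 4 without DKO replicate 2. At equal list length these counts were 0 for WT and 1 for DKO.

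Among regions with a peak in all 4 libraries at 0 h, DKO folds were more often the higher ones. Both DKO folds exceeded both WT folds in 8 of 20 Tcf7 regions (40%) and in 11 of 23 Lef1 regions (47.8%), against 28.2% over the genome. The reverse held in 1 of 20 (5%) and 3 of 23 (13%), against 15%. The single Tcf7 region with WT above DKO was chr11:52079144-52079823, with 6.23 and 7.003 in WT and 4.36 and 5.54 in DKO. With rank in place of fold, WT lay above DKO in 3 Tcf7 regions.

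Among the 3 Lef1 regions with WT above DKO, chr3:130716830-130717600 had the widest gap, with 12.8 and 10.2 in WT and 6.34 and 6.42 in DKO. The others were chr3:130649924-130650664, with 8.49 and 7.26 against 6.20 and 5.98, and chr3:130862313-130863606, with 9.27 and 10.4 against 8.32 and 5.21. Like the single Tcf7 region, the last 2 are named although they were outside the rule for naming, after their values were seen. Summits in chr3:130862313-130863606 lay up to 778 bp apart between libraries, so its folds may not be of 1 site. Fold is relative to each library's own background, and the list medians at 0 h were 10.4 and 10.3 in DKO against 10.1 and 9.78 in WT.

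**Figure D4:**
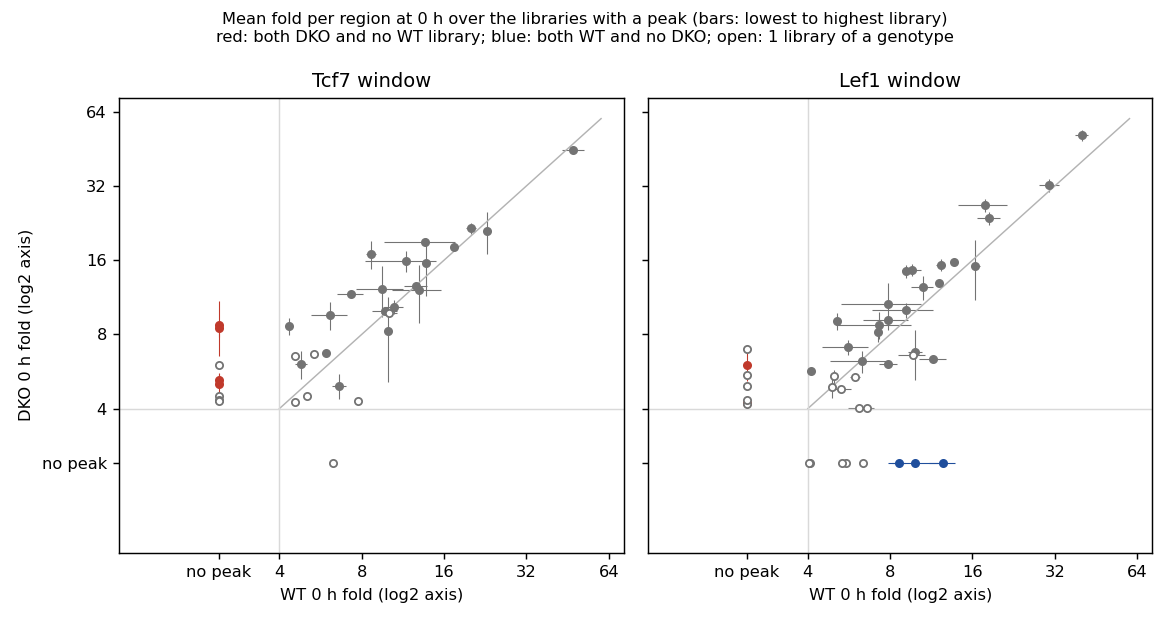
Mean fold at 0 h of each region over the libraries with a peak, WT on the horizontal and DKO on the vertical axis (both log2 scaled), with bars from the lowest to the highest library and a diagonal of equal fold. Red points in the no-peak column are the 4 Tcf7 and 2 Lef1 regions called for DKO, blue points in the no-peak row are the 3 Lef1 regions called for WT, and open points rest on 1 library of a genotype.

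At 72 h the genotype comparison found no region called for DKO, with 0 of 6 in each window against 0.121% over the genome. One Tcf7 region of 10 (10%) and 2 Lef1 regions of 11 (18.2%) were called for WT, against 15.1%. All 3 were present in every library at 0 h. The Tcf7 region chr11:52033624-52034589 had 13.8 and 11.4, 12.2 and 13.0, and 5.64 and 7.64 in WT at 72 h. The Lef1 regions were chr3:130521389-130522992, with 9.29 and 6.37, 8.92 and 9.37, and 5.25 and 7.73, and chr3:130716830-130717600, with 4.13 and 8.55 in WT at 72 h. At least 1 peak number was missing in DKO replicate 1 from the gaps spanning the first 2, and in DKO replicate 2 from the gap spanning the second.

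Both DKO lists at 72 h were shorter than both WT lists, and at equal length both counts called for WT were 0. Without WT 72 h replicate 1 they were 7 for Tcf7 and 6 for Lef1, and without DKO 72 h replicate 2 they were 4 and 5. Counts with a library left out can only stay or rise, as said above. In 3 of 6 Tcf7 regions and 3 of 6 Lef1 regions found in all 4 libraries at 72 h, both WT folds exceeded both DKO folds, against 50.6% over the genome. The reverse held in 0 of 6 in each window, against 0.186%. No region of either window had a peak in all 4 libraries of a genotype and in none of the other.

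The comparison over time asked which sites were lost or gained during culture with IL-7 and IL-15. No region of the windows had a peak at 72 h without one at 0 h. Regions found in both 72 h libraries and in neither 0 h library numbered 0 of 10 (Tcf7) and 0 of 11 (Lef1) in WT, against 1.36%, and 0 of 6 in each window in DKO, against 0.465%. In WT, 6 of 21 Tcf7 regions (28.6%) and 14 of 31 Lef1 regions (45.2%) had both peaks at 0 h and none at 72 h (here called lost), against 18.1% over the genome. In DKO these were 15 of 24 (62.5%) and 16 of 27 (59.3%), against 42.3%.

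The 6 Tcf7 sites lost in WT cells were of low to middling fold. The highest-ranked were chr11:52164253-52164916, with 9.43 and 10.8 for WT and 9.78 for DKO replicate 2 before culture, and chr11:52161681-52162684, with 8.75 and 10.8 in WT and 9.66 and 10.3 in DKO. Both lie within a few kb of the strongest region of the window, which kept its peak in every library. Next by rank was chr11:52037574-52038744, with 6.10 and 5.73 in WT and 6.58 and 6.92 in DKO. The region chr11:52081756-52082438, described above, followed, and its WT folds of 4.47 and 4.20 were the lowest of the window in both WT lists at 0 h. The fifth was chr11:52148505-52149723, with 7.06 and 5.21 in WT and 8.37 and 10.9 in DKO. The sixth, chr11:52039372-52039915, named to complete the count after its values were seen, had 5.03 and 4.56 in WT and 5.26 and 6.87 in DKO. Without WT 72 h replicate 2 the WT count for Tcf7 was 11 in place of 6, and without WT 0 h replicate 2 it was 10. The looser rule cannot lower this count. No peak number was missing from the WT gaps at 72 h that span the regions at 52164253 and 52161681. For each of the other lost sites a number was missing in replicate 1 or replicate 2 of WT, not in both.

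The Tcf7 sites lost in DKO reached higher folds. The highest-ranked, chr11:52154080-52155437, had 0 h folds of 15.6 and 10.3 in WT and 8.90 and 15.3 in DKO, and at 72 h a peak of 7.35 in WT replicate 2. The others were the regions at 52131477, 52118757, 52033624 and 52161681, whose values stand above. Of these 5, the regions at 52154080, 52131477 and 52033624 still had a peak in at least 1 WT library at 72 h. In both DKO lists at 72 h, 1 peak number was missing from the gap that spans both 52154080 and 52131477, of 45.2 and 28.6 kb. For the regions at 52118757 and 52033624 numbers were missing in DKO replicate 1 alone, and at 52161681 in neither. The part of unlisted peaks in these losses was not tested.

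Among Lef1 sites lost in WT, chr3:130902251-130903505 and chr3:130873043-130873721 were of the group described above. The site chr3:130759914-130760622 had 0 h folds of 5.30 and 10.4 in WT and 8.36 and 13.0 in DKO. The site chr3:130729252-130729668 had 9.09 and 9.13 in WT and 15.2 and 13.6 in DKO. These last 2 had no peak in any library at 72 h and came next after the highest-ranked site among those lost in DKO. The fifth, chr3:130820460-130821125, had 4.78 and 5.77 in WT and 4.82 in DKO replicate 1. No peak number was missing from the WT gaps at 72 h that span the regions at 130902251 and 130873043. For the regions at 130759914, 130729252 and 130820460, 1 number was missing in WT replicate 2 at 72 h, from the same gap of 134.3 kb. In DKO replicate 2 at 72 h, 1 number was likewise missing from the gap spanning the regions at 130759914 and 130729252.

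In DKO the highest-ranked Lef1 site lost was chr3:130858990-130860945, with 0 h folds of 7.29 and 7.13 in WT and 7.45 and 8.84 in DKO, and 4.76 in WT replicate 2 at 72 h. The remaining 2 of the 5 were chr3:130521389-130522992 and chr3:130716830-130717600, the regions called for WT at 72 h. No peak number was missing from the DKO gaps at 72 h that span the regions at 130858990 and 130716830. At equal list length the counts of regions lost were 1 and 3 in WT, and 1 and 2 in DKO, for Tcf7 and Lef1.

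Regions found in all 4 libraries at 0 h were then followed to each 72 h library. Of 20 such Tcf7 regions, WT replicates 1 and 2 kept 10 and 15, or 50% and 75%, and DKO replicates 1 and 2 kept 6 and 9, or 30% and 45%. Of 23 such Lef1 regions, WT kept 47.8% and 69.6%, and DKO 26.1% and 47.8%. Over 24438 regions the shares were 65.2% and 86.9% in WT and 40.9% and 62.7% in DKO. The windows lay lower than the genome in all 4 libraries, yet the exact 95% binomial (Clopper-Pearson) intervals of the Tcf7 window, such as 27.2% to 72.8% in WT replicate 1, held the genome's share in each. In the Lef1 window the interval of WT replicate 2, 47.1% to 86.8%, ended below 86.9%, and the other 3 held the genome's share. These intervals cover counting error over regions only. They take the regions of a library as independent and were not adjusted for their number, so they are descriptions and no test against the genome.

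Regions kept in more of the 72 h libraries had higher median ranks at 0 h. In the Tcf7 window the median rank at 0 h was 76.5 for the 6 kept in all 4 libraries at 72 h, 61.8 for the 9 kept in 1 to 3, and 29.7 for the 5 kept in none. In the Lef1 window the medians were 83.0, 55.0 and 22.1, for 6, 10 and 7 regions. Over the genome they were 82.0, 47.6 and 28.7, in the same order. In the Lef1 window the lowest rank kept in all 4 was 53.1 and the highest kept in none 54.6, so these classes overlapped. In the Tcf7 window these were 61.5 and 40.4, without overlap. All 72 h lists were shorter than all 0 h lists, and a shorter list holds fewer weak peaks. The part of list length in this order was not tested. The median over all regions followed was 61.6 in the Tcf7 window, 53.1 in the Lef1 window and 59.7 over the genome.

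**Figure D5:**
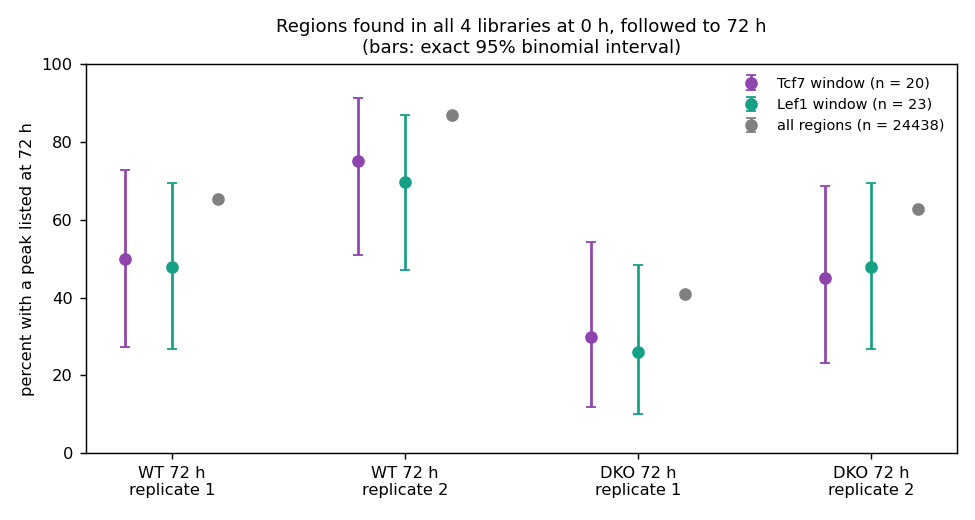
Percent of the regions found in all 4 libraries at 0 h that had a peak in each 72 h library (vertical axis, 0 to 100), for the Tcf7 window, the Lef1 window and all regions, with exact 95% binomial intervals. Both windows lie below the genome's share in each library, and the intervals of the windows are wide.

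High rank at 0 h did not always go with a listed peak in every 72 h library. The region chr11:52127071-52128751, chosen after its values were seen, ranked at 99.5, 99.7, 99.5 and 99.1 in the 0 h lists, with folds of 17.3 and 17.5 in WT and 18.3 and 17.8 in DKO. After culture it had 7.30 and 9.92 in WT and 6.03 in DKO replicate 2, where its ranks were still 97.5, 98.0 and 90.7. It had no listed peak in DKO replicate 1, the shortest list. In that list 1 peak number was missing over the 45.2 kb gap that spans the region, and which called peak it belonged to was not tested.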

How the data were processed

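CTCF peaks were measured in 8 libraries and IgG peaks in 1, with groups taken from the labels. The build was mm9 and the tools were Bowtie2 2.2.5, MACS2 2.1.1 and FastQC, per the submitters' processing notes. No source used here gave the calling control or thresholds. Peaks were called per library, as each sample had its own deposited list. The deposited ratio column (fold) is the authors' enrichment over local background, beside −log10 p and −log10 q from the authors' peak caller. The deposited score column was not used.

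Peaks were merged at 1 bp overlap, and the permutation tests were run, with Python 3.11.15, numpy 2.4.6 and pandas 2.3.3. The binomial intervals and the adjustment of p-values used scipy 1.17.1. Where a library had several peaks in a region, the highest fold was used. The merging was tested on simulated data. Folds across lists are descriptions, and no depth was available.

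Regions with full values were, per window, the 5 highest-ranked found in all 8 libraries, all called between genotypes, per genotype the 5 highest-ranked lost by 72 h, and any seen in all libraries of a genotype and none of the other, or at 72 h alone. Members and lists were chosen with earlier results of these data known. Alternatives were −log10 q of at least 5, equal list length, 50% overlap, summits within 100 bp, windows wider or narrower by 50 kb, rank for fold, each library left out and a replicate block.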

Additional observations from a re-analysis of the deposited data

Results flagged for a closer look

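In 3 results the genotypes stood in opposite order at 0 h and 72 h in every library, and the difference between the times was not tested. In the Tcf7 window DKO had 4.5 more peaks than WT at 0 h and at 72 h a difference of -5.5, a change of -10.0 peaks. Both DKO lists at 72 h were shorter than both WT lists. As a share of each list the genotypes overlapped at 72 h, at 0.0577% and 0.0601% in WT and 0.0580% and 0.0554% in DKO. At the Lef1 region starting at 131022337 the log2 ratio of mean folds, DKO over WT, was 0.36 at 0 h and -0.93 at 72 h, a change of -1.29. At the Lef1 region starting at 130940335 it was 0.33 and -0.66, a change of -0.99. Both Lef1 regions, with DKO above WT at 0 h and below at 72 h, were among 6 found in all 8 libraries. No Tcf7 region of 6 had this order. Over the genome 1517 of 9591 regions found in all 8 libraries (15.8%) had this order, and 0 had the reverse. Counts this small do not set the windows apart from the genome.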

How the results depend on the processing

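All 4 differences between 72 h and 0 h (peaks and shares, both windows) kept their sign under the alternatives tried, and none had passed 0.05. Size was less stable than sign. Equal list length (10339 peaks) gave -0.75 peaks for Tcf7, against -16.5, and -2.75 for Lef1, against -23.0. The share differences there were -0.00725 percentage points for Tcf7 (exact permutation test, p = 0.667) and -0.0266 for Lef1 (exact permutation test, p = 0.0556). As reported they were -0.0277 and -0.0462.

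The Tcf7 difference DKO minus WT in peaks, averaged over the times, changed sign in some alternatives. It was 0.5 with −log10 q of at least 5, 0.75 at equal length and 0.5 in windows narrower by 50 kb. With each library left out it ran from -2.0 to 1.0, and the Lef1 difference in share from -0.00421 to 0.00175. The cause was not tested.

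With −log10 q of at least 5, Lef1 calls were 5 for WT and 1 for DKO at 0 h and 9 for loss in WT, and the Tcf7 call for WT at 72 h was 0. At equal length, Lef1 calls at 0 h were 0 for WT and 1 for DKO, the Tcf7 call for DKO was 1, calls for WT at 72 h were 0 in each window, losses were 1 (Tcf7) and 3 (Lef1) in WT and 1 and 2 in DKO, and gains in WT 1 and 1. Fewer peaks enter at equal length. With summits within 100 bp, Tcf7 gave 1 call for WT at 0 h and 1 gain in DKO, and Lef1 gave 1 for WT at 72 h. Wider windows gave 1 Tcf7 call for WT at 0 h, and narrower ones 1 Lef1 call for WT at 72 h. Rank for fold gave 3 Tcf7 regions with WT above DKO at 0 h. Overlap of 50% moved none of 16 counts.

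With each library left out, fewer libraries have to meet the call, so counts can only stay or rise. Calls at 0 h then ran from 0 to 1 (Tcf7, WT), 5 to 6 (Lef1, WT), 4 to 7 (Tcf7, DKO) and 3 to 5 (Lef1, DKO). Calls for WT at 72 h ran from 1 to 7 (Tcf7) and 2 to 6 (Lef1), and Tcf7 losses in WT from 6 to 11.

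Deviations of same-numbered libraries, taken after each library's median was removed, had correlations of 0.015 to 0.042 over 9591 regions. A shift common to whole libraries would not show in them, so they cannot tell whether same-numbered libraries were handled together. With the replicate block the differences over time were again -16.5 and -23.0 (exact permutation test, p = 0.125, the smallest possible). Unknown depth limits what an absent peak shows.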
